A study of Mus musculus with 2 samples.

Results

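The 37 genes described here act in the response of cells to stress in the endoplasmic reticulum (ER) and to shortage of amino acids. They were chosen by gene name, from a list drawn up with earlier results of these data known: 14 ER chaperones and folding enzymes, 4 genes of ER-associated degradation, 10 stress sensors, transcription factors and feedback genes, and 9 genes linked to the transcription factor ATF4, mostly of amino acid supply, with the lipoprotein receptor gene Vldlr among them. All 37 were found among the 18193 genes that the array's annotation names by a single symbol. Expression was measured in cultured endothelial cells, the cells lining blood vessels, from C57/BL6 mouse embryos of embryonic day 10.5 with a floxed Snail1 gene. In both groups the embryos carried that allele and the cells were infected with an adenovirus, which delivered βGal to the WT cells and Cre recombinase to the Snail1 KO cells. Each group is 1 array of bulk RNA. The comparison asks what differs in embryonic endothelial cells that were given Cre to delete Snail1, which encodes a zinc finger transcription factor.

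The ER folds secreted and membrane proteins. When unfolded proteins accumulate there, the sensors IRE1 (Ern1), PERK (Eif2ak3) and ATF6 (Atf6) set off the unfolded protein response: IRE1 splices Xbp1 mRNA, ATF6 is cleaved to an active factor, and both raise chaperones and degradation factors, while PERK phosphorylates eIF2α, which slows translation in general and favours translation of ATF4. ATF4 is also raised by amino acid shortage through the kinase GCN2, and it turns on genes for amino acid synthesis and uptake. Endothelial cells secrete matrix and clotting proteins and so depend on ER folding. Much of this response is post-transcriptional (splicing, cleavage, phosphorylation, translation), and the values below are mRNA levels only.

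DNA elements of different kinds connect these genes to their regulators, and they are shown because they are the sites through which the ATF6 and ATF4 branches are known to act. The ER stress response element (ERSE), known to be bound by ATF6 together with NF-Y, was searched as CCAAT and CCACG separated by 9 bases of any kind, and the related ERSE-II as ATTGG and CCACG separated by 1 base. The composite element of C/EBP and ATF proteins, through which ATF4 acts, was searched as TGATGCAA. RefSeq windows (build GRCm38.p6) from 250 bases before to 50 bases after the gene start were read on both strands. They were held for 33 of the 37 members, in 35 windows. Atf6, Hyou1, Manf and Slc7a5 were not searched. An ERSE stood in 8 of the 35 member windows (22.9%), against 0.119% of all 32851 windows, and an ERSE-II in 2 (5.71%, against 0.0365%). The members were listed as genes of these responses, so shares above those of all windows are no test of the elements. All ERSE matches lay upstream of the start, the nearest 26 bases away, in Syvn1, and the farthest 194 bases away, in Hsp90b1, while the ERSE-II of Dnajb11 lay just after the start. In the lines below, printed 5′ to 3′ on the strand that reads the element, capitals mark its fixed letters.
Hspa5 (chr2:34772020-34772048, plus strand): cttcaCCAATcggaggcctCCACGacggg
Calr (chr8:84847070-84847098, plus strand): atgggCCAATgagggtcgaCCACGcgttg
Hsp90b1 (chr10:86705633-86705661, minus strand): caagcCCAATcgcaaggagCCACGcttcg
Hsp90b1 (chr10:86705528-86705556, plus strand): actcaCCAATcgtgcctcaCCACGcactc
Canx (chr11:50325795-50325823, minus strand): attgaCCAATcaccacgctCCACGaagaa
Pdia6 (chr12:17266486-17266514, plus strand): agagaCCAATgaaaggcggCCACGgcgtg
Dnajc3 (chr14:118937822-118937850, plus strand): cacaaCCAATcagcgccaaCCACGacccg
Creld2 (chr15:88819515-88819543, minus strand): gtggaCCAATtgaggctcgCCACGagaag
Syvn1 (chr19:6046527-6046555, plus strand): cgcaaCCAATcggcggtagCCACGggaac
Herpud1 (chr8:94386372-94386392, plus strand): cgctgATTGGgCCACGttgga
Dnajb11 (chr16:22857847-22857867, plus strand): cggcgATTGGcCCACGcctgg

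Hspa5, which encodes the chaperone BiP, is the textbook gene of this element. The 250 bases before its start (chr2:34771840-34772089, plus strand) are shown with the matching element in capitals, and they hold further CCAAT letters without a CCACG at the same spacing.
Hspa5: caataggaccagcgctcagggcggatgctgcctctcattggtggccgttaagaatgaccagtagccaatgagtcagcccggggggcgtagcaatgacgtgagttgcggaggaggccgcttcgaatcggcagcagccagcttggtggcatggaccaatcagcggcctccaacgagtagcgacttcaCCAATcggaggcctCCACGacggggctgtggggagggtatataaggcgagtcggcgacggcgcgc

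The C/EBP-ATF composite TGATGCAA stood in windows of 4 members (11.4% of member windows, against 0.895% of all windows): Chac1, Slc7a11, which has it on both strands, Herpud1 and Vldlr. With the sixth base left free, a search that includes every TGATGCAA, it stood in 6 members (17.1%, against 3.97%), the further ones being Asns and Trib3. The XBP1-bound core TGACGTGG, which contains the reverse complement of CCACG, stood in none of the 35 windows and in 0.676% of all. These matches are descriptions of letters in short windows.
Chac1 (chr2:119351039-119351066, minus strand): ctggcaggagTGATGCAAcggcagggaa
Slc7a11 (chr3:50443662-50443689, minus strand): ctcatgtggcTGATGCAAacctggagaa
Slc7a11 (chr3:50443643-50443670, plus strand): ggctgcatgaTGATGCAAattctccagg
Herpud1 (chr8:94386307-94386334, minus strand): gggtgcgggcTGATGCAAcccgccgtgg
Vldlr (chr19:27216810-27216837, minus strand): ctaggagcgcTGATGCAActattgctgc

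**Figure D1:**
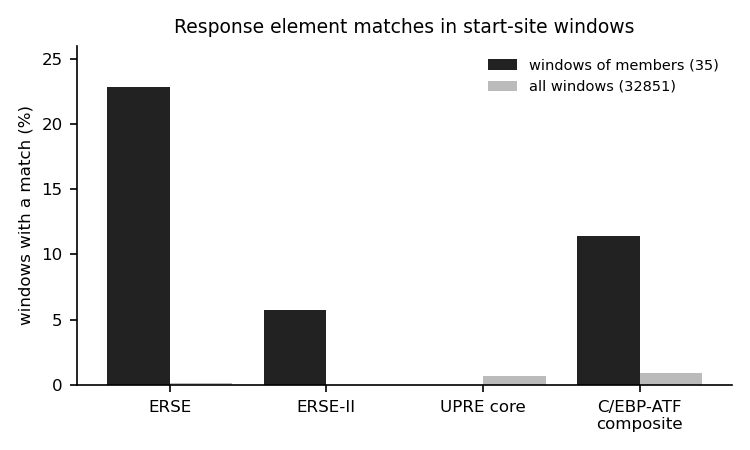
Percent of start-site windows with a match of each element, for the 35 windows of members (black bars) and all 32851 windows (grey bars). ERSE matches stood in 22.9% of member windows and 0.119% of all windows, and the UPRE core TGACGTGG in no member window.

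On the arrays, each gene was represented by its brightest probe set (a set of short probes for a transcript), in log2 units of the authors' normalized values. Differences are Snail1 KO minus WT, and 1 log2 unit is a 2-fold difference. All 37 members passed the filter on dim genes, a mean log2 value above 3.97. With 1 array in each group there are no replicates, so no difference was tested and every value carries an unmeasured culture-to-culture error. As a scale, the robust SD of the difference over all 12874 analysed genes was 0.32, and differences between probe sets of the same gene had an SD of 0.30 (0.28 for the members).

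Endothelial markers were present on both arrays: Cdh5, VE-cadherin, was at 11.34 and 11.46, and 9 of 10 endothelial markers passed the filter, the exception being Vwf at 3.96 and 3.86. Snai1 was at 5.33 in WT and, below the filter level, at 3.59 in Snail1 KO. The labels do not name the floxed exons, so whether its probe set lies in the deleted part is not known here. The array's 4 control probe sets for Cre read 2.69 to 3.83 for WT and 11.87 to 12.86 for Snail1 KO. The groups differ in virus cargo as well as in Snail1, and these cannot be told apart here. In bulk RNA a smaller share of 1 cell type and less RNA per cell cannot be told apart either. The smooth muscle and pericyte markers, of which 5 of 6 passed the filter, ranged from 4.16 to 10.94 on the WT array and from 3.25 to 9.09 on the Snail1 KO array, and their summed level on the linear scale was 3368 and 848. The summed levels of the 10 endothelial markers were 26716 and 25522, of the 6 leukocyte markers 721 and 669, of the 5 fibroblast markers 3504 and 3479, of the 5 epithelial markers 221 and 120, and of the 6 markers of plasma cells and hepatocytes 461 and 617. Such sums follow their brightest genes, Acta2 (10.94 and 9.09) and Tagln (10.35 and 7.80) for smooth muscle and pericytes. For leukocytes this was Cd14 (8.43 and 8.60), for fibroblasts Thy1 (11.43 and 11.37) and for the last list Sdc1 (8.45 and 9.02). Of the fibroblast markers 3 passed the filter, while Lum (3.16 and 3.44) and Pdgfra (3.76 and 3.86) did not. Of the 5 analysed smooth muscle and pericyte markers 4 were lower and 1 was higher, Cspg4 (5.03 and 5.14). The leukocyte marker Coro1a was at 6.80 and 4.84, which is 3.89-fold lower, and lower in both its probe sets above the filter. The pan-leukocyte marker Ptprc (2.96 and 3.29), the epithelial cadherin Cdh1 (2.59 and 2.51) and the hepatocyte albumin gene Alb (2.83 and 3.07) were below the filter on both arrays. Other markers of these lists passed it. The leukocyte markers Cd68 (7.27 and 7.20) and Lyz2 (6.43 and 6.34) had nearly equal values. All 4 analysed epithelial markers were lower, among them the keratins Krt18 (6.15 and 4.86) and Krt19 (6.47 and 5.10). Whether these markers have a part in the differences below was not tested.

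No member was 2-fold higher and none 2-fold lower on the Snail1 KO array in its brightest probe set, where 0.971% of all analysed genes were 2-fold higher and 1.84% were 2-fold lower. At 1.5-fold, 4 members were lower (Ddit3, Slc7a5, Hyou1 and Shmt2) and none higher, against 6.08% and 5.06% of all genes. Of the 37 members, 14 were higher and 23 lower, with a median difference of -0.10, a lowest of -0.78 and a highest of 0.53. Among all analysed genes 50.9% were lower and the median was -0.0083. Differences larger than the robust SD were found in 12 members in the lower direction and in 4 in the higher, against 17.6% and 15.8% of all genes, and 21 members lay within it.

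**Figure D2:**
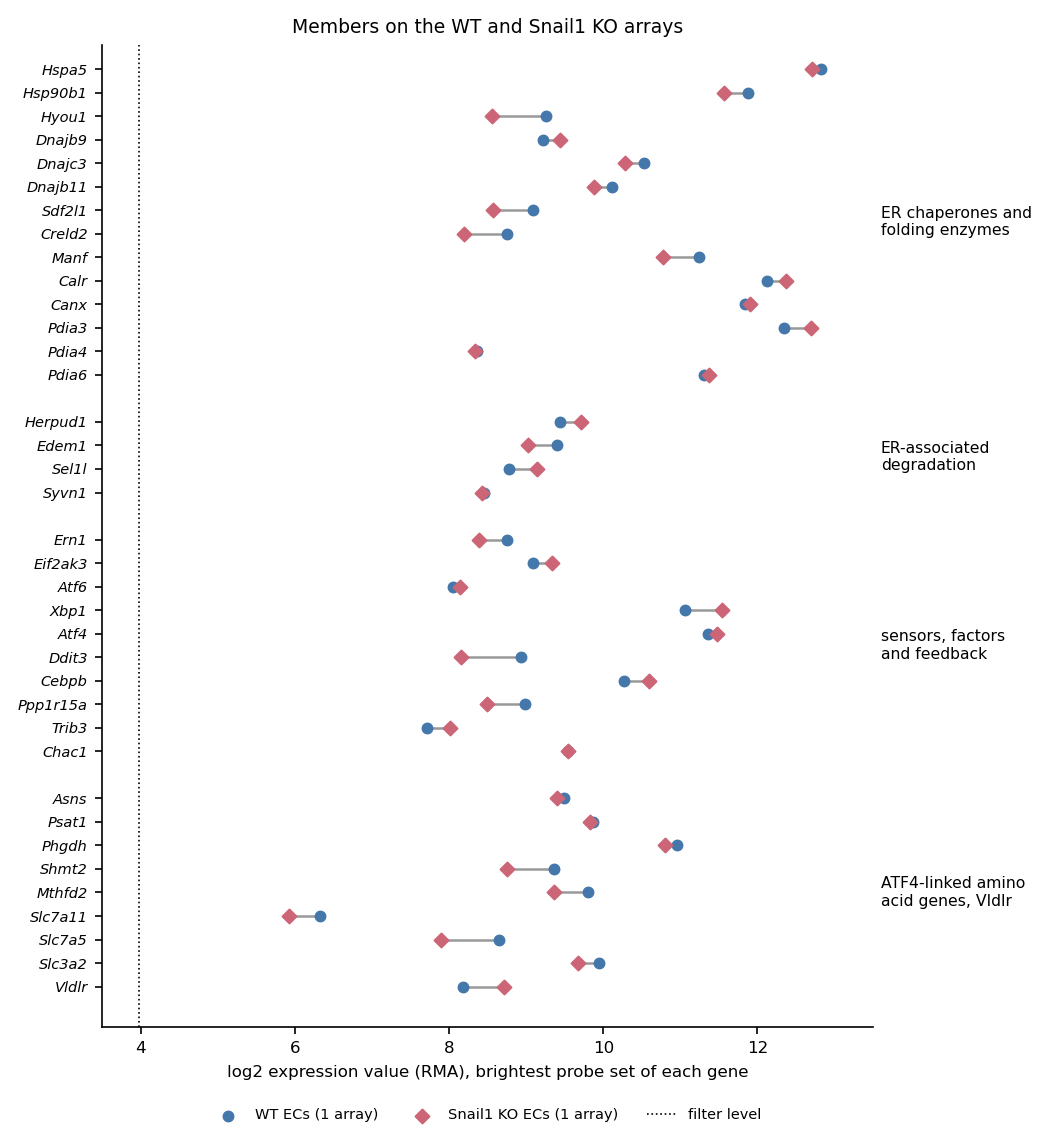
Log2 expression values of the 37 members on the WT array (blue circles) and the Snail1 KO array (red diamonds), 1 array each, in the brightest probe set of each gene, grouped by role; the dotted line is the filter level of 3.97. The longest lines run to the left and belong to Ddit3, Slc7a5 and Hyou1, and the longest line to the right is that of Vldlr.

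Among the ER chaperones and folding enzymes, 9 were lower and 5 higher, with a median of -0.18, or -0.10 when probe sets were averaged per gene. Of all analysed genes 50.9% were lower. Of the 14, 4 were lower and 1 was higher by more than the robust SD, against 17.6% and 15.8% of all analysed genes.

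Hspa5, the central ER Hsp70 chaperone, had log2 values of 12.83 (WT) and 12.71 (Snail1 KO), and its 3 probe sets differed by -0.31 to -0.01. Hsp90b1, the ER member of the Hsp90 family, was at 11.87 and 11.56, and its further probe set was lower by more, at -0.46. Hyou1, a large chaperone that exchanges the nucleotide of BiP, was at 9.25 and 8.55, which is 1.62-fold lower. It was the chaperone with the largest difference of either sign, although its dimmest probe set, at 4.22 and 4.15, differed by only -0.06.

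The DnaJ co-chaperones, which hand substrates to BiP, did not share a sign. Dnajb9 was at 9.22 and 9.44, Dnajb11 at 10.12 and 9.88, and Dnajc3, which also inhibits PERK, at 10.52 and 10.28. The 5 probe sets of Dnajc3 ran from -0.50 to 0.54, with 3 higher and 2 lower, so the array gives no single direction for it. Each of the other pair is measured by 1 probe set.

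The small ER stress factors had close differences. Sdf2l1, a component of ER chaperone complexes, was at 9.09 and 8.57 (1.43-fold lower). Creld2, a secreted disulphide isomerase-like protein, was at 8.75 and 8.20 (1.47-fold lower), and Manf, a neurotrophic factor released on ER stress, at 11.24 and 10.77 (1.38-fold lower). Each has 1 probe set, so these differences have no second reading on the array. All 3 exceeded the robust SD of 0.32.

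Calr, calreticulin, and Canx, calnexin, the lectins that fold glycoproteins, were at 12.12 and 12.37 and at 11.84 and 11.90. All 3 probe sets of each were higher, by 0.0011 to 0.25 for Calr and by 0.06 to 0.27 for Canx. Pdia3, the disulphide isomerase that works with these lectins, was at 12.34 and 12.69 (1.27-fold higher). The isomerases Pdia4 (8.36 and 8.33) and Pdia6 (11.31 and 11.37) had nearly equal values on the arrays. Of these 5 genes, Pdia3 exceeded the robust SD.

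Members with the promoter element had values in both directions. The 8 members with an ERSE had 3 higher and 5 lower values and a median of -0.08, from -0.55 for Creld2 to 0.25 for Calr. The 25 members with a window and no ERSE had 10 higher and 15 lower and a median of -0.04. These 25 include Herpud1 (0.27) and Dnajb11 (-0.24), which hold the related ERSE-II.

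ER-associated degradation sends misfolded proteins to the proteasome. Herpud1, an ER membrane protein strongly induced in ER stress, was at 9.44 and 9.71, while a dimmer probe set gave -0.03. Edem1, which selects glycoproteins for disposal, was at 9.40 and 9.02 and lower in both its probe sets. Sel1l, the adaptor of the HRD1 ubiquitin ligase, was at 8.78 and 9.14, and all 5 of its probe sets were higher, by 0.02 to 0.65. Syvn1, which encodes HRD1 itself, was at 8.45 and 8.42. The adaptor and its ligase thus had different values, 0.37 against -0.03, and the median of the 4 genes was 0.12, or 0.03 when probe sets were averaged per gene.

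**Figure D3:**
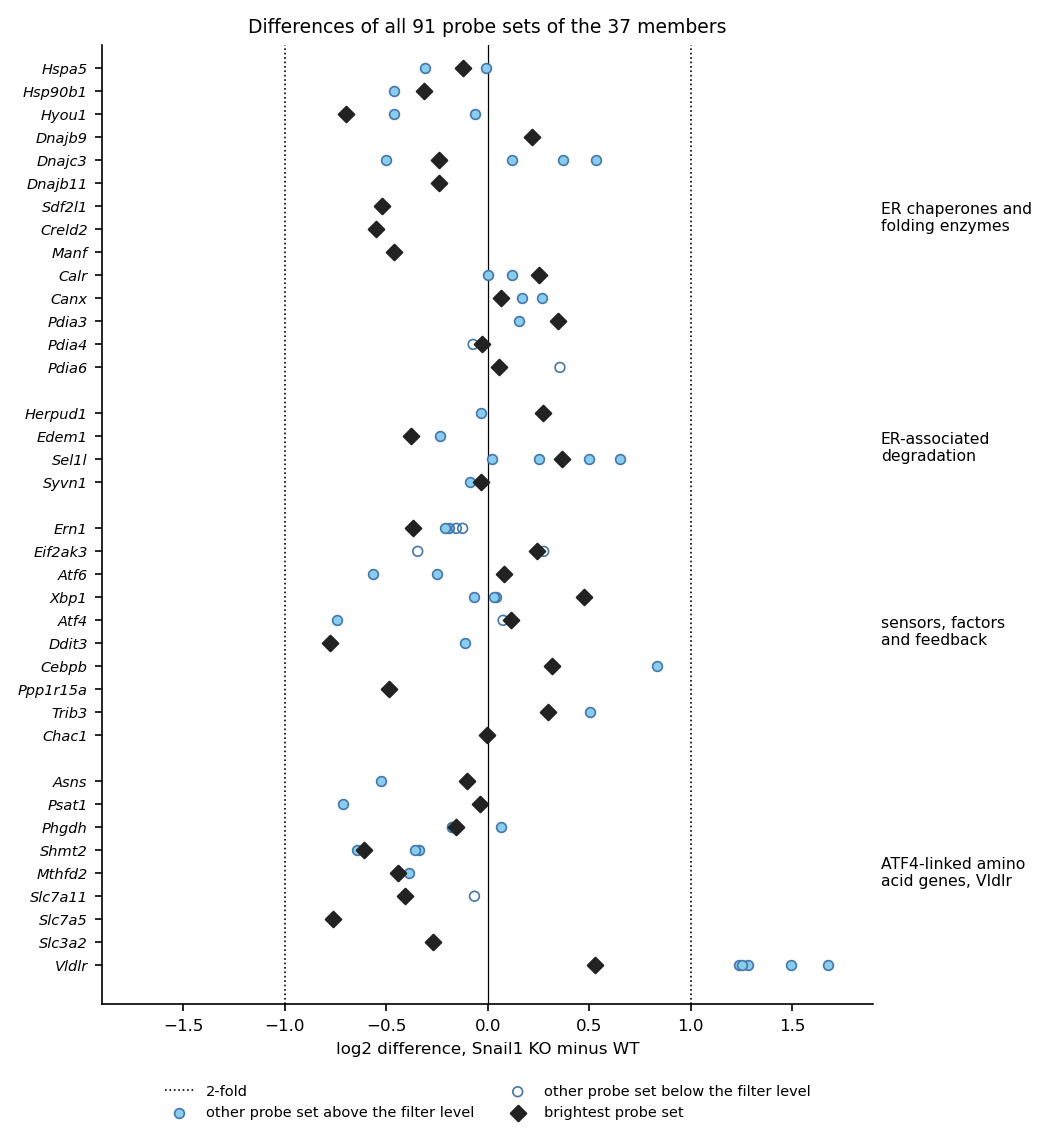
Log2 difference (Snail1 KO minus WT) of all 91 probe sets of the 37 members, by gene; diamonds are the brightest probe sets that represent the genes, filled circles other probe sets above the filter level of 3.97, open circles those below it, and dotted lines mark 2-fold. The 5 points past 2-fold are all of Vldlr.

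Of the sensors of ER stress, Ern1 exceeded the robust SD in its brightest probe set. It was at 8.75 and 8.39, and its 3 probe sets above the filter were all lower, by -0.37 to -0.19. Eif2ak3 was at 9.09 and 9.33 in the 1 of its probe sets above the filter. Atf6 was at 8.05 and 8.13 in its brightest probe set, while its other probe sets were lower, by -0.25 and -0.56. The 3 sensors did not share a direction.

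Xbp1, the factor made active by IRE1, was at 11.06 and 11.54 in its brightest probe set (1.39-fold higher), but its other 3 differed by -0.07, 0.03 and 0.04. The array values do not separate spliced from unspliced Xbp1. Atf4 was at 11.36 and 11.47, and its further probe set above the filter was lower, at 9.83 and 9.09. Over its probe sets, the difference of Xbp1 thus ran from -0.07 to 0.48. The Atf4 probe sets above the filter differed by 0.11 and -0.74.

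Ddit3, which encodes CHOP, the ATF4 target linked to cell death in unresolved ER stress, had the lowest difference of all members. Its values were 8.93 (WT) and 8.15 (Snail1 KO), a 1.72-fold lower level, and 3.16% of analysed genes had a more negative difference. Its further probe set, at 5.96 and 5.84, differed by -0.11. Ppp1r15a, whose product GADD34 brings phosphatase to eIF2α and so restores translation, was at 8.98 and 8.49 (1.40-fold lower), in 1 probe set.

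Trib3, Cebpb and Chac1 were higher or had nearly equal values. Trib3, a pseudokinase that restrains ATF4 and CHOP, was at 7.71 and 8.01, and both its probe sets were higher. Cebpb, a C/EBP factor that pairs with ATF4, was at 10.27 and 10.59, with its other probe set 1.78-fold higher (8.33 and 9.16). Chac1, an enzyme that degrades glutathione, was at 9.55 and 9.54. Ddit3, Trib3 and Chac1 are all counted as ATF4 targets, and their differences were -0.78, 0.30 and -0.0048. Over the 10 sensors, factors and feedback genes, 6 were higher and 4 lower, where 50.9% of all analysed genes were lower. The median and mean differences of the 10 were 0.10 and -0.01. When probe sets were averaged per gene the median had the opposite sign, at -0.09, and Atf4 and Atf6 were lower.

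The ATF4-linked genes of amino acid supply were all lower, 8 of 8, each by less than 2-fold, and with Vldlr the median of the 9 was -0.27. Of all analysed genes 50.9% were lower. Slc7a5, Shmt2, Mthfd2 and Slc7a11 were lower by more than the robust SD, where 17.6% of all analysed genes were. Asns, Psat1, Phgdh and Slc3a2 lay within that SD. The 8 genes divide into synthesis and uptake. Asns, asparagine synthetase, was at 9.49 and 9.39, with its other probe set at -0.52. Phgdh, the first enzyme of serine synthesis, was at 10.96 and 10.80, and 3 of its 4 probe sets were lower. Psat1, the next enzyme, was at 9.86 and 9.83 in its brightest probe set and 1.64-fold lower in the other (9.25 and 8.54).

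The mitochondrial enzymes that move 1-carbon units from serine to folate had larger differences. Shmt2, serine hydroxymethyltransferase, was at 9.36 and 8.75, 1.53-fold lower, and all 4 of its probe sets were lower, by -0.64 to -0.34. Mthfd2, a methylenetetrahydrofolate dehydrogenase, was at 9.80 and 9.36, and its probe sets gave -0.44 and -0.39. These are the members whose probe sets were both several and all lower by more than the robust SD of 0.32.

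Among the transporters, Slc7a5, which imports large neutral amino acids and is also called LAT1, was at 8.65 and 7.89, 1.69-fold lower. Its partner Slc3a2, the heavy chain that carries it to the membrane, was at 9.94 and 9.67. Slc7a11, the cystine importer that shares the same heavy chain, was at 6.33 and 5.92. All 3 were lower, with differences of -0.76 for Slc7a5, -0.27 for Slc3a2 and -0.41 for Slc7a11, and each rests on 1 probe set above the filter.

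Vldlr, a receptor of triglyceride-rich lipoproteins and reelin whose gene is known as an ATF4 target in the PERK branch, was the member with the highest difference. Its brightest probe set read 8.18 (WT) and 8.71 (Snail1 KO), a 1.44-fold higher level. The next was at 6.58 and 7.86, the third at 6.19 and 7.68, and the fourth at 5.32 and 7.001. The remaining pair was at 4.56 and 5.80 and at 3.56 and 4.82. All 6 were higher on the Snail1 KO array, 5 of them by 2.36-fold to 3.20-fold. Of the 83 member probe sets above the filter, these 5 were the ones past 2-fold in the higher direction, where 1.57% of all such probe sets were, and none was past 2-fold in the lower, against 1.52%. The brightest probe set is of a type that can bind several transcripts, and so are the next (6.58 and 7.86) and the dimmest (3.56 and 4.82). Vldlr shares the TGATGCAA letters shown above with Chac1, Slc7a11 and Herpud1, whose differences were -0.0048, -0.41 and 0.27.

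**Figure D4:**
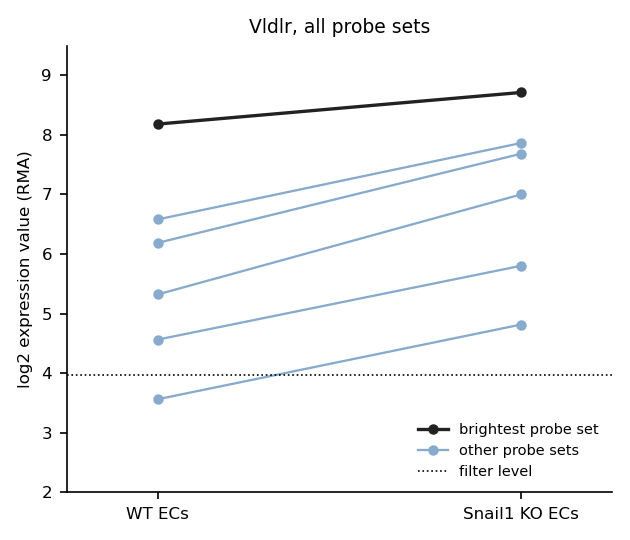
Log2 expression values of the 6 probe sets of Vldlr on the WT and Snail1 KO arrays, 1 array each, with lines joining the values of each probe set; the dark line is the brightest and the dotted line the filter level of 3.97. All lines go up, the brightest by 0.53 and the others by 1.24 to 1.68 log2 units.

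Of 100 further genes of the same pathways, 91 were analysed, and 32 were higher and 59 lower on the Snail1 KO array, with a median of -0.14. Among all analysed genes 50.9% were lower and the median was -0.0083, and these values stand beside each list below. The 21 other genes of ER folding, translocation and trafficking had 18 lower and 3 higher values and a median of -0.32. They include the 3.05-fold lower Fkbp11, a prolyl isomerase of secretory cells, at 8.68 and 7.07, although another of its probe sets differed by 0.21, and Nucb2, a calcium-binding protein, at 9.07 and 7.87 (2.30-fold lower). These 2 were the genes of that list past 2-fold in the lower direction, where 1.84% of all analysed genes were. None was 2-fold higher, against 0.971%.

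The 11 other degradation genes had a median of -0.03, with 5 higher and 6 lower. Selenos, a selenoprotein of the ER membrane, was at 11.55 and 10.93, and its 3 probe sets were lower by -0.83 to -0.60. Derl3, a derlin, was at 5.62 and 5.18. Among the 13 other sensors and stress factors, 7 were higher and 6 lower, with a median of 0.02. The stress factor Atf3, which is also an immediate early gene, was at 9.17 and 8.004 (2.25-fold lower). No other gene of that list was past 2-fold, where 1.84% of all analysed genes were 2-fold lower and 0.971% 2-fold higher.

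The 11 other ATF4-linked stress genes had a median of 0.02, with 6 higher and 5 lower. None was past 2-fold, where 1.84% of all analysed genes were 2-fold lower and 0.971% 2-fold higher. Vegfa, the angiogenic growth factor, was at 5.33 and 6.26 but differed by 0.02 in its other probe set. Nupr1, a small stress-induced nuclear protein, was at 11.14 and 10.34, and its probe sets gave -0.80 and -0.78.

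Of 17 other amino acid and folate genes, 10 were lower and 7 higher, with a median of -0.13. None was past 2-fold, against 1.84% of all analysed genes 2-fold lower and 0.971% 2-fold higher. Cth, which makes cysteine from cystathionine, was at 6.84 and 5.97 (1.82-fold lower). Gpt2, a mitochondrial alanine transaminase, was at 6.31 and 7.11, and all 4 of its probe sets were higher, by 0.58 to 0.96. The 18 cytosolic aminoacyl-tRNA synthetases, which charge tRNAs and are ATF4-linked in part, had 14 lower and 4 higher values and a median of -0.14. Of all analysed genes 50.9% were lower. Hars1 was at 10.55 and 9.92 and Aars1 at 9.998 and 9.57.

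**Figure D5:**
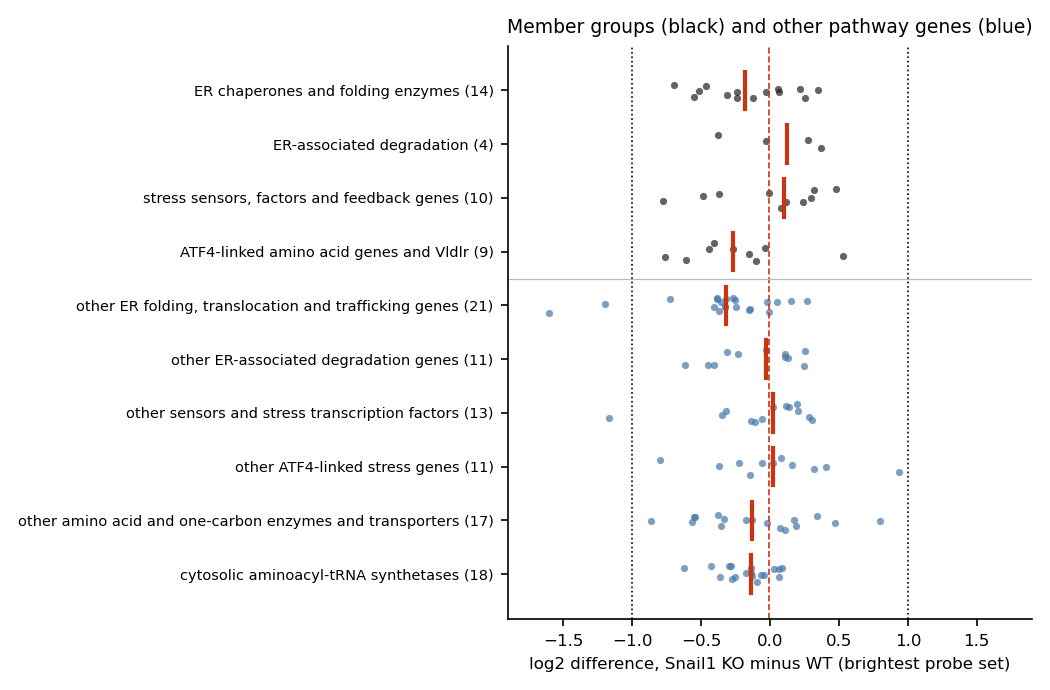
Log2 differences (Snail1 KO minus WT, brightest probe set) of the member groups (black points) and of the lists of other pathway genes (blue points), with the number of genes in brackets; red bars are list medians, the dashed red line the median of all 12874 analysed genes and dotted lines mark 2-fold. Medians lay between -0.32 for other ER folding genes and 0.12 for ER-associated degradation, the latter 0.03 with the mean of all probe sets.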

How the data were processed

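Bulk RNA of cultured embryonic endothelial cells was measured on 1 array per group, grouped by sample title. The deposited values are log2 expression per probe set, made by the authors with RMA in affy, per the submitters' processing notes; the sources used here give no versions. RMA corrects background, quantile-normalizes the arrays and summarises probes, so a shift of total mRNA cannot be seen and differences of dim probe sets are compressed. No detection calls were used. The number of arrays limits the precision.

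Of 45101 probe sets, 34945 had 1 gene symbol in the platform annotation. Each gene was represented by its probe set of highest mean and analysed if that mean exceeded the 40th percentile of non-control probe sets. Genes were described by size at 2-fold and 1.5-fold, with no test. Of the further pathway genes, those past 2-fold were named, or else the 2 with the largest difference; 16 were matched through RefSeq synonyms, 7 had no probe set of a single symbol here, and 2 lay below the filter. Members and lists were chosen with earlier results of these data known. Sequences are from RefSeq (GRCm38.p6). Python 3.11.15, numpy 2.4.6 and pandas 2.3.3 were used, and the counting was tested on simulated data. Alternatives were no filter, the 60th percentile, the mean of all probe sets, leaving out probe sets that can bind several transcripts, and centring.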

Additional observations from a re-analysis of the deposited data

How the results depend on the processing

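Leaving out an array was not possible, and no paired analysis was possible because each group holds 1 array. The number of members 2-fold higher was 1 (Vldlr) instead of 0 with the mean of all probe sets and also without probe sets that can bind several transcripts, which left 30 members; Vldlr then differed by 1.247 and 1.497. With a limit of 1.5-fold on the brightest probe sets, 4 members were lower, which follows from the smaller limit. The median over all members lay between -0.18 and -0.07 in all settings, -0.11 without Vldlr, a setting added after seeing the data. The median of the sensors, factors and feedback genes was -0.09 with the mean of all probe sets, against 0.10. The medians of the other 3 groups kept their sign in every setting run, but with the mean of all probe sets that of ER-associated degradation was 0.03 against 0.12 and that of the chaperones -0.10 against -0.18. Without probe sets that can bind several transcripts, the chaperones lacked Hspa5, Hsp90b1 and Calr. The ATF4-linked genes then lacked Psat1, Phgdh and Slc3a2, and the sensors, factors and feedback genes Trib3. Those medians are thus not of the same genes. Of 178 single member values, 7 moved by more than the robust SD, in 5 members: Vldlr, Xbp1 (0.12 with the mean of all probe sets and 0.03 without probe sets that can bind several transcripts), Atf6 (-0.24), Ddit3 (-0.45) and Psat1 (-0.37). All 7 arose in those 2 settings. The 178 also count values that could not move so far. Both filter settings kept each member's brightest probe set, and centring removed a shift of -0.0083. The 9 members with 1 probe set could not move so far either. The sign differed for Dnajc3 (0.06), Atf4 (-0.18) and Atf6 with the mean of all probe sets, and for Chac1 with centring (0.0035). The cause was not tested. How far a probe set's signal lay above background was not measured.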

Other observations

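Values of neighbouring stress programmes, in lists written after the results were known, had medians between that of all genes (-0.0083) and that of the members (-0.10). The 9 analysed cytosolic heat shock genes had a median of -0.07, with 4 higher and 5 lower. Hspb1, a small heat shock protein, read 10.17 (WT) and 9.58 (Snail1 KO), and Hsph1, a nucleotide exchange factor of Hsp70, at 11.62 and 11.88. The 8 mitochondrial chaperones and proteases had a median of -0.06, with 3 higher and 5 lower. Among them the co-chaperonin Hspe1 was at 11.77 and 11.24 and the protease Lonp1 at 9.07 and 9.25.

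A list around Vldlr, of the lipoprotein receptor family and its partners, was also written after the results were known. Its 9 analysed genes had a median of 0.33, with 6 higher and 3 lower. Of all analysed genes 50.9% were lower, and the median was -0.0083. Reln, which encodes the ligand reelin, was at 7.64 and 9.42. It was the 1 gene of the list that was 2-fold higher, where 0.971% of all analysed genes were. The other reelin receptor, Lrp8, was at 7.36 and 7.69 with its 3 probe sets from -0.17 to 0.33. Mylip, the ubiquitin ligase that degrades lipoprotein receptors, was at 8.62 and 9.18. The 3 lower genes were Lrpap1 (9.91 and 9.58), Lrp1 (5.03 and 4.90) and Lrp10 (9.47 and 9.44). The pair of probe sets that the annotation gives to Phgdh together with a gene model differed by 0.21 and -0.18 and entered no count.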
